A study of Mus musculus with 2 samples.

Results

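The Groucho corepressor genes of the mouse, Tle1, Tle2, Tle3 and Tle4, were examined for nearby binding of the co-activator p300 in the dorsal cerebral wall at embryonic day 14.5. A p300 peak was counted for a gene when its midpoint fell inside the gene body or within 500 kb of the gene's transcription start site, taken from the transcript with the longest coding sequence. By this rule 48 of the 6629 deposited peaks (0.724%) belonged to the 4 genes, and no peak was counted for more than 1 of them. Tle3 had 24 peaks, Tle4 had 10, Tle1 had 8 and Tle2 had 6. At least 1 peak was counted for 70.0% of protein-coding genes by the same rule. The family was chosen by the number of peaks at Tle3, so the numbers of peaks are a description and no test is attached to them.

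The data are a chromatin immunoprecipitation with sequencing (ChIP-seq) of p300, a histone acetyltransferase recruited to active enhancers, in embryos of the Swiss Webster strain, with no mutation or drug in the labels. Caps of cortex were dissected at embryonic day 14.5, freed of hem, hippocampus and choroid plexus, and 0.15 g of the remaining dorsal wall was fixed in 1% formaldehyde for 15 min. There was 1 p300 library, made from 30 µg of chromatin and 4 µg of anti-p300 antibody, and 1 input library without antibody, which was not analysed here. The tissue holds progenitors and neurons together, and the number of embryos it came from is not given in the sources used here. Each peak is given by its number and its place on the mm9 assembly without a score or read count, so the depth behind a single peak is unknown and nothing can be said of how peaks vary between embryos.

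Groucho proteins do not bind DNA themselves. DNA-binding repressors such as Hes, Runx and Tcf/Lef factors recruit them, and they in turn bring histone deacetylases to the bound gene. In the developing forebrain Tle1 works with Hes1 to hold back neuronal differentiation, and Tle4 is widely used as a marker of the deep-layer neurons that project to the thalamus. p300 has the opposite chemistry, since it adds acetyl groups to histones, so a p300 peak near a Tle gene marks a candidate enhancer and says nothing of where the Tle protein acts.

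The peaks of Tle3 that stand for the features described below are shown first, each as the 120 bases of its middle 500 bp that hold the most matches to 15 short transcription factor words. Peak 6369 was the nearest upstream of the start site and peak 6370 the nearest downstream, 6373 and 6377 were the widest, and 6384 was the narrowest and, by midpoints, a member of the closest pair. Peak 6378 is included, after its letters were seen, as the Tle3 peak with a close pair of E-boxes. All are on the plus strand of mm9, and capitals mark the word matches.
Tle3 peak 6369, chr9:61209047-61209166: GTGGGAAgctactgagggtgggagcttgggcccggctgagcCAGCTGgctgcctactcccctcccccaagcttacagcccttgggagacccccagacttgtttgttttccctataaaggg
Tle3 peak 6370, chr9:61226019-61226138: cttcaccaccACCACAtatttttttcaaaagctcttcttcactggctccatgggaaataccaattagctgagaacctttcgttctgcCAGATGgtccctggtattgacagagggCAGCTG
Tle3 peak 6373, chr9:61253050-61253169: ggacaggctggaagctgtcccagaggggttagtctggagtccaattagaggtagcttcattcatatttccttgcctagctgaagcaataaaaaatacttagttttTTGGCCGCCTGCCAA
Tle3 peak 6377, chr9:61358236-61358355: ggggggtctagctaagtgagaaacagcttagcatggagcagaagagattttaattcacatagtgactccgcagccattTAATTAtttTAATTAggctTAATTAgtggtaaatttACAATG
Tle3 peak 6378, chr9:61378154-61378273: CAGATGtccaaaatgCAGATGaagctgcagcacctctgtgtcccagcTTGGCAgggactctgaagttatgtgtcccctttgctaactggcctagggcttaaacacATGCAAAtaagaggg
Tle3 peak 6384, chr9:61553498-61553617: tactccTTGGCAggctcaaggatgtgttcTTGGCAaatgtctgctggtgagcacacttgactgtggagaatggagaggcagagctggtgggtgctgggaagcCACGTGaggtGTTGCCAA

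In peak 6370 the capitals are a Runx word and both E-box words, letters that Neurod and Neurog factors can bind. The stretch shown for peak 6373 ends in the spaced Nfi palindrome. In peak 6377 the homeodomain word TAATTA stood 3 times within the shown stretch, followed by a Sox word. Peak 6384 held the Nfi word 3 times, beside the Hes word CACGTG and an Rfx word.

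The other genes are represented by the only peak that was close to Tle2 and by peaks 4304 and 4305 downstream of Tle1, with midpoints 168 kb apart. Tle4 is represented by an intronic and the most distal upstream peaks. The strand and the capitals are as above.
Tle1 peak 4304, chr4:71426239-71426358: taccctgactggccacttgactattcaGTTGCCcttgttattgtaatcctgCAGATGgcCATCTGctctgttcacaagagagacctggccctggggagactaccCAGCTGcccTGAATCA
Tle1 peak 4305, chr4:71594422-71594541: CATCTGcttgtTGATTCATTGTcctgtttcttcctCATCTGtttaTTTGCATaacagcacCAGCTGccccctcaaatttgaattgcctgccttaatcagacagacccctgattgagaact
Tle2 peak 614, chr10:81034049-81034168: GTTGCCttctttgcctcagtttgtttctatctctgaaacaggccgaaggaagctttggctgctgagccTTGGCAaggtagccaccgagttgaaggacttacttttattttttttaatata
Tle4 peak 3066, chr19:14641024-14641143: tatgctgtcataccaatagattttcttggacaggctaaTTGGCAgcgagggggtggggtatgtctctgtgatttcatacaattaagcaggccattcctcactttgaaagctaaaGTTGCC
Tle4 peak 3068, chr19:14851899-14852018: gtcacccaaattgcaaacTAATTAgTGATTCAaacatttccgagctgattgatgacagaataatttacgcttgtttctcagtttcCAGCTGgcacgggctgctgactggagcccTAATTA
Tle4 peak 3069, chr19:14965057-14965176: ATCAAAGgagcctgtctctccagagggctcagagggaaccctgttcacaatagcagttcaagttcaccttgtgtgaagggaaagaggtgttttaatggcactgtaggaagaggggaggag

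Both Tle1 stretches held E-box words of both kinds, with 5 matches in peak 4304 and 6 in peak 4305. The stretch of peak 614 held an Rfx and an Nfi word and no Neurod or Neurog E-box, and its middle 500 bp also held the Hes word CACGCG. Of the Tle4 peaks, 3068 held TAATTA at bases 19 and 115 of its stretch with an AP-1 word, whereas the widest peak, 3069, held a single Tcf/Lef word.

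Of the 22367 protein-coding genes of the annotation, 19 had at least the 24 peaks of Tle3 (0.0849%), and because neighbouring genes share peaks these 19 fell into 6 separate stretches of the genome. Tle3 tied with 3 others for rank 16. The median coding gene had 1 peak, the 95th percentile was 8 peaks and the highest number was 51. Tle4 with 10 peaks was matched or passed by 2.72% of coding genes, Tle1 with 8 by 6.07% and Tle2 with 6 by 12.7%. These shares are the background for numbers that chose the family and are no test.

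**Figure D1:**
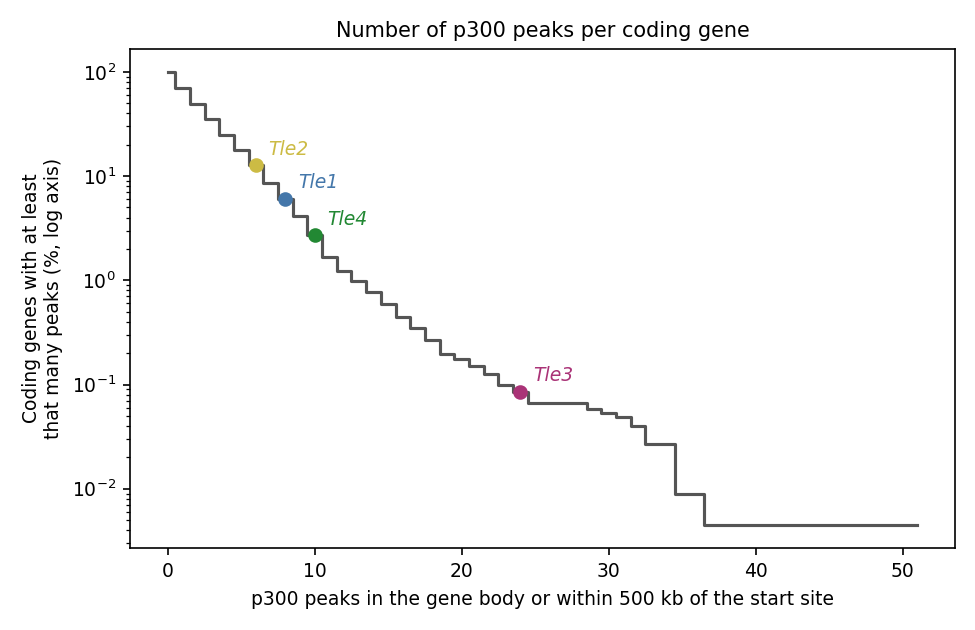
Percent of coding genes (log axis) with at least the number of p300 peaks given on the horizontal axis, counted in the gene body or within 500 kb of the start site. Coloured points mark Tle2 at 6, Tle1 at 8, Tle4 at 10 and Tle3 at 24 peaks.

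Tle3 (ENSMUSG00000032280, chr9:61220190-61266297, plus strand, 46.1 kb) sits in a stretch with almost no other genes. The start site used was at 61221192. The only other coding start site in the window of 1 Mb was that of the gene model Gm10655, close upstream of Tle3. Apart from such models, the nearest start sites were those of Uaca, which encodes a coiled-coil protein, 579 kb upstream, and of Rplp1, which encodes a ribosomal protein, 541 kb downstream.

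The 24 Tle3 peaks were spread unevenly, with 7 upstream and 17 downstream of the start site. Within 50, 100 and 250 kb of the start site there were 5, 8 and 16 peaks, rising to 24 within 500 kb and 30 within 1000 kb. The densest block ran from 61225933 to 61471039, where 13 midpoints spanned 245 kb, all within 250 kb downstream of the start site, against 3 midpoints within 250 kb upstream. In this block no 50-kb step was empty, the 5 steps holding 4, 2, 2, 2 and 3 peaks. Over the window of 1 Mb the density was 24 peaks per Mb, and over the assembled genome it was 2.59 per Mb.

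Of these peaks 4 lay within the Tle3 gene, and 6.57% of coding genes had at least 1 peak in the gene body. Peaks 6370 and 6371 were 4.74 and 7.56 kb from the start site in intron 4, peak 6372 was at 23.4 kb in intron 6, and peak 6373 was at 31.8 kb in intron 8. Among coding genes 0.778% had at least 4 peaks in the gene body. Peak 6373, at 2194 bp the widest of the 24, lay wholly within an exon, 61250268 to 61255280, of another annotated Tle3 transcript, although it is intronic in the transcript used here. The study removed peaks at exons by its own gene set, so this peak depends on which transcripts are counted.

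Between the end of Tle3 and 250 kb from its start site lay 9 intergenic peaks, from peak 6374 at 60.9 kb to peak 6382 at 250 kb. They included peak 6377 at 137 kb, which at 2155 bp was the second widest of Tle3. Beyond them came the pair 6383 and 6384, at 330 and 332 kb, with midpoints 2.19 kb apart (by edges, peaks 6370 and 6371 were the closest Tle3 pair, at 1.38 kb), and the last pair, 6385 and 6386, at 489 and 499 kb. Peak 6384 was the narrowest at 594 bp. Peak 6386 was also the last to be counted, and the next peak outside the window was at 505 kb.

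On the upstream side peak 6369 was alone within 50 kb, at 12 kb, followed by peak 6368 at 95.2 kb, 6367 at 166 kb and 6366 at 262 kb. The remaining upstream peaks were 6365 at 422 kb, 6364 at 486 kb and 6363 at 495 kb, the last of them inside Uaca. These 3 far upstream peaks had their nearest coding start site at the model Gm9869.

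A peak in a window need not act on the gene whose window it is, and the list does not say which gene a peak serves. The start site of Tle3 was the nearest coding one for 13 of its 24 peaks, all on the downstream side, and at least 13 peaks were nearest to 0.0447% of coding genes. Of the other 11, 4 were nearest to Gm10655, 3 to Gm9869 and 4 to Rplp1. Leaving out genes with model names, Tle3 was nearest for 17. In the domain between neighbouring coding genes, which ran over 545 kb, Tle3 had 18 peaks.

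**Figure D2:**
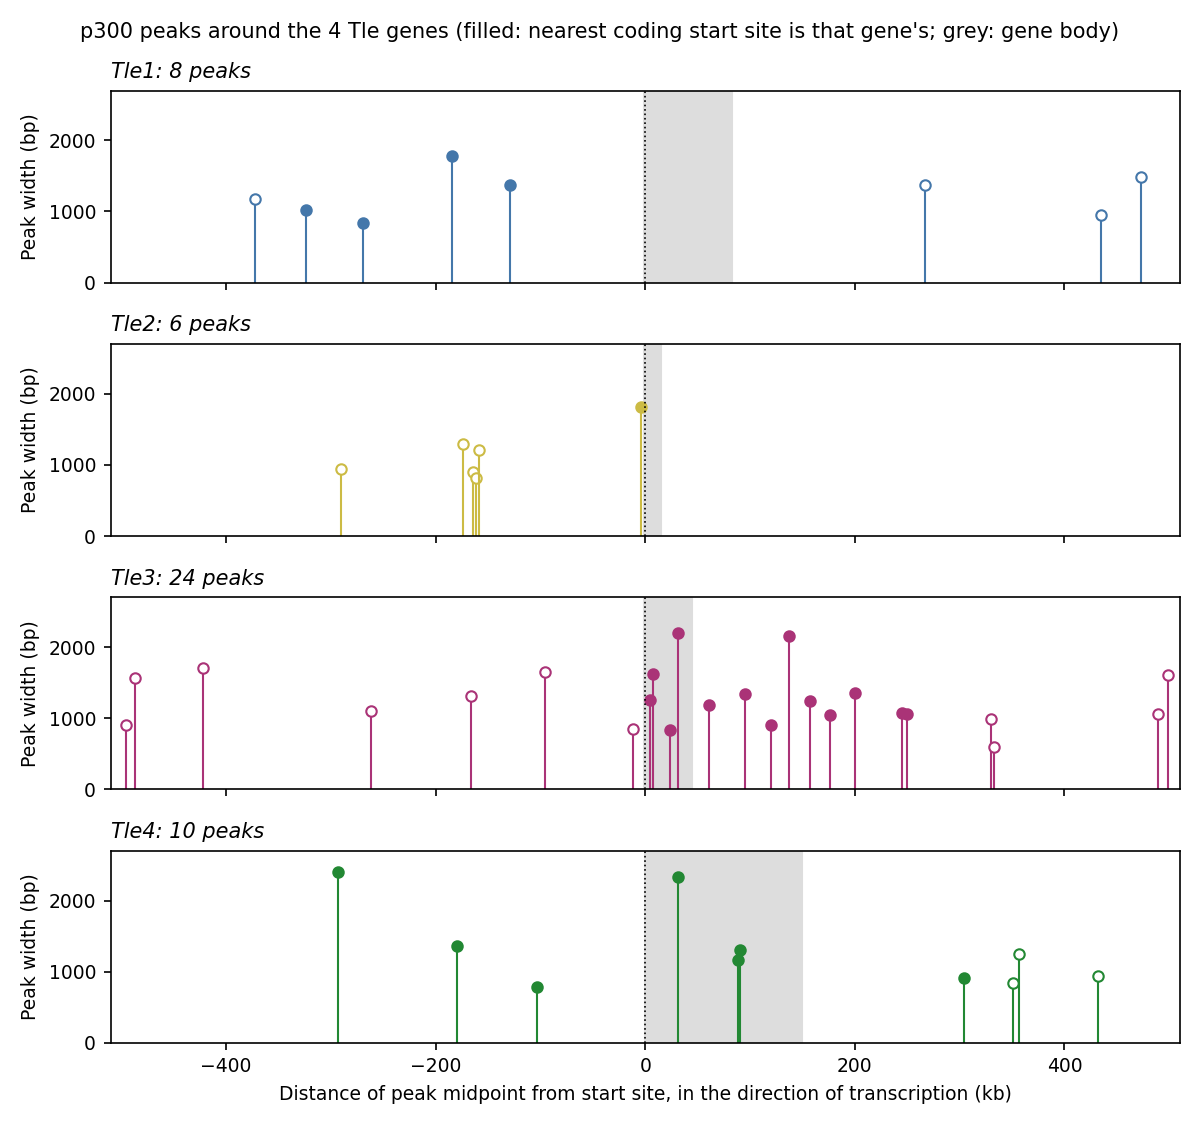
Width in bp of each p300 peak against the distance in kb of its midpoint from the start site, in the direction of transcription, with 1 row for each Tle gene. Filled points are peaks for which that gene has the nearest coding start site, the grey band is the gene body, and the 24 Tle3 peaks fill the 250 kb downstream of its start site with 13 points.

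Tle4 (ENSMUSG00000024642, chr19:14522562-14672473, minus strand) is the longest of the family at 150 kb, and its window held no other coding start site. The next named genes were far off, Psat1, an enzyme of serine synthesis, 1327 kb upstream and the olfactory receptor gene Olfr1505 679 kb downstream. It had 3 peaks upstream and 7 downstream, and its start site was the nearest for 7 of 10. At least 7 peaks were nearest to 0.425% of coding genes.

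Inside the gene Tle4 had 3 peaks, and 1.29% of coding genes had at least 3. Peak 3066, of 2329 bp, was in intron 4 at 31.4 kb, and peaks 3064 and 3065 stood side by side in intron 8 with a gap of 0.633 kb between their edges, the closest pair of the 4 genes by edges and, at 1.87 kb, by midpoints. Upstream were peak 3067 at 103 kb, the narrowest of Tle4 at 781 bp, peak 3068 at 179 kb and peak 3069 at 293 kb, which at 2399 bp was the widest of all 48. Downstream of the gene, peaks 3063, 3062, 3061 and 3060 lay at 305, 351, 357 and 432 kb. The next peak outside the window was 1020 kb away, so the count at Tle4 did not change between 500 and 1000 kb.

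Tle1 (ENSMUSG00000008305, chr4:71778176-71861953, minus strand, 83.8 kb) had the most remote peaks. None of its 8 peaks was inside the gene or within 100 kb of the start site, and the nearest, peak 4306, was 129 kb upstream. The other upstream peaks were 4307 at 185 kb, 4308 at 269 kb, 4309 at 324 kb and 4310 at 372 kb. Downstream lay peak 4305 at 267 kb, 4304 at 435 kb and 4303 at 473 kb. The next peak outside was at 567 kb. All 8 were intergenic, and Tle1 had the nearest coding start site for 4 of them, as many as 1.62% of coding genes had or exceeded. Of the rest 3 were nearer to the model Gm11232 and 1 to the aldolase gene Aldoart1, and without models Tle1 was nearest for 7.

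Tle2 (ENSMUSG00000034771, chr10:81037306-81053590, plus strand) is the shortest of the 4 genes at 16.3 kb and lies among many others, with 45 other coding start sites in its window. Its relatives Aes and Tle6 flank it, with start sites 14.4 kb upstream and 25.4 kb downstream. Of its 6 peaks, all upstream, only peak 614 was near, 4.12 kb from the start site at chr10:81033250-81035061, between Aes and Tle2. This peak was also the widest of the 6 at 1812 bp and the only intergenic one. Tle2 had the nearest coding start site for this 1 peak alone, and 14.2% of coding genes were nearest to at least 1.

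The other 5 peaks in the Tle2 window lay inside other genes. Peak 609, at 290 kb, was in Tjp3, which encodes a tight junction protein, and peaks 610 to 613, between 159 and 174 kb, were in Nfic, which encodes a nuclear factor I protein. Peak 611 overlapped an exon of the noncoding model Gm16104 by 210 bp, 2.07 kb from its start site. Aes and Tle6, short members of the Groucho family, had 6 peaks each by the same rule, and all 6 were those counted for Tle2.

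Peaks inside the genes were confined to the longest introns of the transcripts used. The study removed peaks at exons and close to start sites, and the fourth longest Tle3 intron was only 1.39 kb, about the width of a peak. A peak in such a short intron would mostly have touched an exon and been dropped. The placing in long introns is therefore a description and no result about the introns. In Tle3, introns 4, 6 and 8 were the 3 longest of 19, at 17.6, 7.14 and 3.88 kb, and held 2, 1 and 1 peaks. In Tle4, introns 8, 4 and 6 were the longest, at 48.1, 29.9 and 26.8 kb, and held 2, 1 and 0. The same introns interrupt the coding sequence at like places, after 234, 402 and 624 coding bases in Tle3 and after 252, 390 and 609 in Tle4. In Tle1, whose introns 4, 6 and 8 interrupt the coding sequence after the same 234, 402 and 624 bases as in Tle3, these introns spanned 27.0, 10.7 and 12 kb and held 0 peaks.

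**Figure D3:**
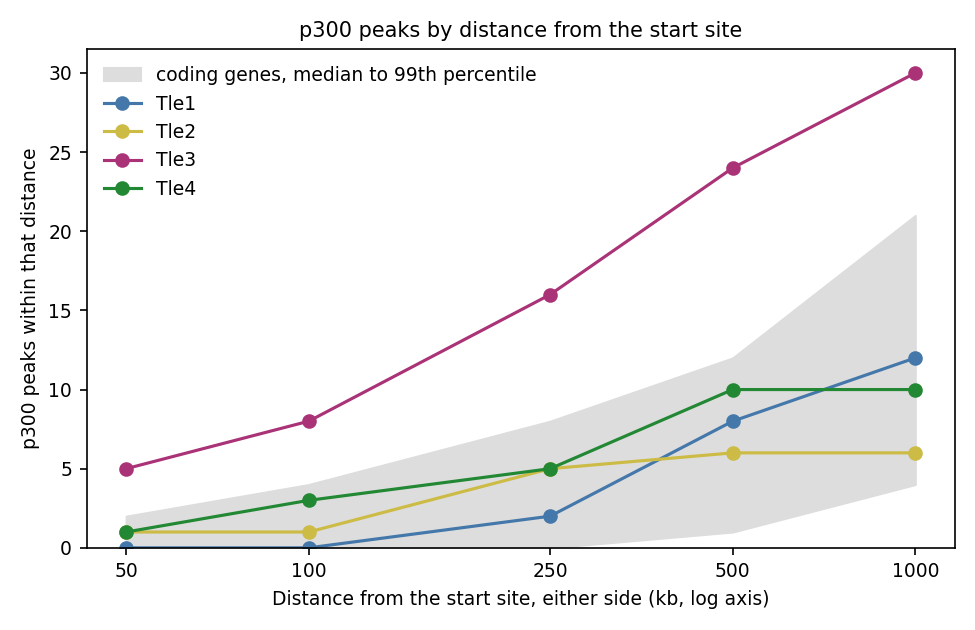
Number of p300 peaks within 50 to 1000 kb of the start site on either side (log axis) for each Tle gene, with the span from the median to the 99th percentile of all coding genes in grey. Tle3 is above the grey span at every distance, from 5 peaks at 50 kb to 30 at 1000 kb, while Tle1 starts at 0 and reaches 12.

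The order of the genes depended on the distance used. Within 50 kb Tle3 had 5 peaks, Tle2 and Tle4 had 1 each and Tle1 had 0. Within 250 kb Tle3 had 16, Tle2 and Tle4 had 5 each and Tle1 had 2. Only at 1000 kb did Tle1, with 12, pass Tle4, with 10, and Tle2 stayed at 6. These counts use distance alone, without the gene body. At least the 30 peaks of Tle3 within 1000 kb of a start site were found for 0.264% of coding genes, and at least the 16 within 250 kb for 0.0447%.

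The rule fixes that peaks lie together, so their spacing is a description. Neighbouring Tle3 peaks had midpoints a median of 23.5 kb apart, and 16 of the 23 distances (69.6%) were under 50 kb. Over all 6609 pairs of neighbouring peaks the median was 128 kb and 32.0% were under 50 kb. The medians at Tle1 and Tle4 were 56.2 and 75.1 kb. At Tle2 it was 9.62 kb, set by the group inside Nfic. Under 5 kb there were 3 pairs at Tle3, 2 at Tle2, 1 at Tle4 and none at Tle1.

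Widths were not used to choose the genes. The 48 peaks had a median width of 1198 bp, with quartiles of 943 and 1404 bp, and all 6629 peaks had a median of 1017 bp, with quartiles of 860 and 1260 bp. At Tle3 the median was 1216 bp, and 18 of 24 peaks were at least as wide as the median of all peaks. The medians were 1273 bp at Tle1, 1203 bp at Tle4 and 1072 bp at Tle2. Of the 48, 8 were among the 665 widest peaks, those of at least 1643 bp, namely 4 at Tle3, 2 at Tle4 and 1 each at Tle1 and Tle2. The ranges of the 4 genes overlapped, from 594 to 2194 bp at Tle3 and from 781 to 2399 bp at Tle4.

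Base composition differed from gene to gene. Over the middle 500 bp of each peak the median GC content was 40.5% at Tle1 and 40.2% at Tle4, below the 46.2% of all peaks, while it was 49.3% at Tle3 and 62.5% at Tle2. The Tle2 peaks ran from 51.2% to 67.4% and did not overlap those of Tle4, from 37.2% to 50.2%, or of Tle1, from 31.8% to 49.6%. The high values at Tle2 came from the peaks inside Nfic and Tjp3, from 60.2% to 67.4%. Peak 614, the only one near Tle2, had the lowest value, 51.2%. Tle3 peaks, from 43.0% to 58.2%, overlapped all 3. The windows of 1 Mb around the start sites had a GC content of 39.0% at Tle1, 39.8% at Tle4, 48.2% at Tle3 and 48.9% at Tle2, and the median peak exceeded its window by the most at Tle2.

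**Figure D4:**
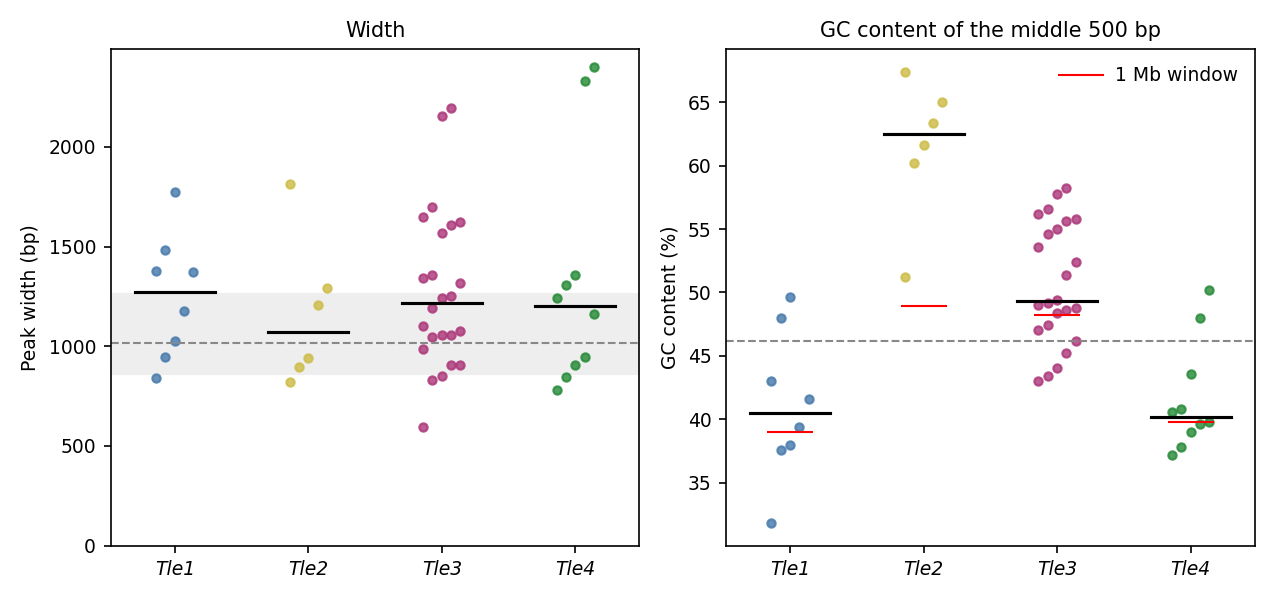
Width in bp (left) and GC content in percent of the middle 500 bp (right) of every p300 peak at the 4 Tle genes, 1 point per peak, with black bars at the medians. Dashed lines are the medians of all 6629 peaks, 1017 bp and 46.2%, the grey band is their middle range of widths, 860 to 1260 bp, and red bars give the GC content of the 1 Mb around each start site.

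The letters of the peaks were searched on both strands for 15 words, each a short consensus of a factor family known in the cortex or known to recruit Groucho proteins. A match is a description of letters and not a bound site. Words can overlap, as the Rfx and Nfi words do at the end of the stretch shown for peak 6384. The E-box words CAGATG and CAGCTG of Neurod and Neurog factors were found in 14 of 24 Tle3 peaks (58.3%, with a 95% Clopper-Pearson interval from 36.6% to 77.9%) and in 10 (41.7%), against 57.4% and 39.7% of all peaks. Either word was in 70.8% of Tle3 peaks and 74.1% of all peaks. Both shares of all peaks lay within the interval of the Tle3 peaks, which covers counting error only.

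For the words of factors that recruit Groucho proteins the counts were small. The Tcf/Lef word ATCAAAG was in 2 Tle3 peaks (8.33%) and in 8.21% of all peaks, the Hes word CACGTG in 2 (8.33%) and in 6.92%, and the Hes word CACGCG in 0 of 24, which allows up to 14.2% by the same interval, and in 3.21%. The Runx word ACCACA was in 8 (33.3%) and in 27.5% of all peaks, and the Fox word GTAAACA in 2 (8.33%) and 9.10%. Rbpj, the DNA-binding partner of Notch, was not among the Groucho partners listed below. Its word GTGGGAA was in 5 Tle3 peaks (20.8%, interval 7.13% to 42.2%) against 11.0%, in 2 of the 6 Tle2 peaks and in none at Tle1 or Tle4. The 5 Tle3 peaks were 6369, just upstream of the gene, and 6376, 6381, 6382 and 6383, from 120 to 330 kb downstream. In the middle 500 bp each of these shares of all peaks lay within the interval of Tle3. Over whole peaks, which were wider at Tle3, the Rbpj word was in 11 of 24 (45.8%, interval 25.6% to 67.2%) against 22.6% of all peaks, outside the interval. In the middle 200 bp it was in 1 of 24 (4.17%) against 4.28%. No other of the 15 words fell outside its Tle3 interval at any length searched. Among so many 95% intervals an occasional miss arises from counting error, so no excess is read from this word.

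The words of other cortical families were as follows. The Lhx homeodomain word TAATTA was in 4 Tle3 peaks (16.7%, interval 4.74% to 37.4%) and in 31.3% of all peaks, and it was in 3 of 8 peaks at Tle1, 5 of 10 at Tle4 and 0 of 6 at Tle2. In Tle3 these were peaks 6368, 6377, 6379 and 6381, all intergenic. The Nfi word TTGGCA was in 12 Tle3 peaks (50%) against 42.3%, the Sox word ACAATG in 8 (33.3%) against 27.2%, the POU word ATGCAAA in 6 (25%) against 15.1% and the Rfx word GTTGCC in 5 (20.8%) against 19.9%. The AP-1 word TGANTCA was in 1 Tle3 peak (4.17%, interval 0.105% to 21.1%) against 14.9%, and in 3 peaks each at Tle1 and Tle4. The spaced palindrome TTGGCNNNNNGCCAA of Nfi dimers was in 1 of the 48 peaks, the intronic peak 6373 shown above, and in 18 of all 6629 (0.272%). Of the 15 words, 11 were more frequent in Tle3 peaks than in all peaks, but only 8 were over whole peaks and 6 in the middle 200 bp.

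**Figure D5:**
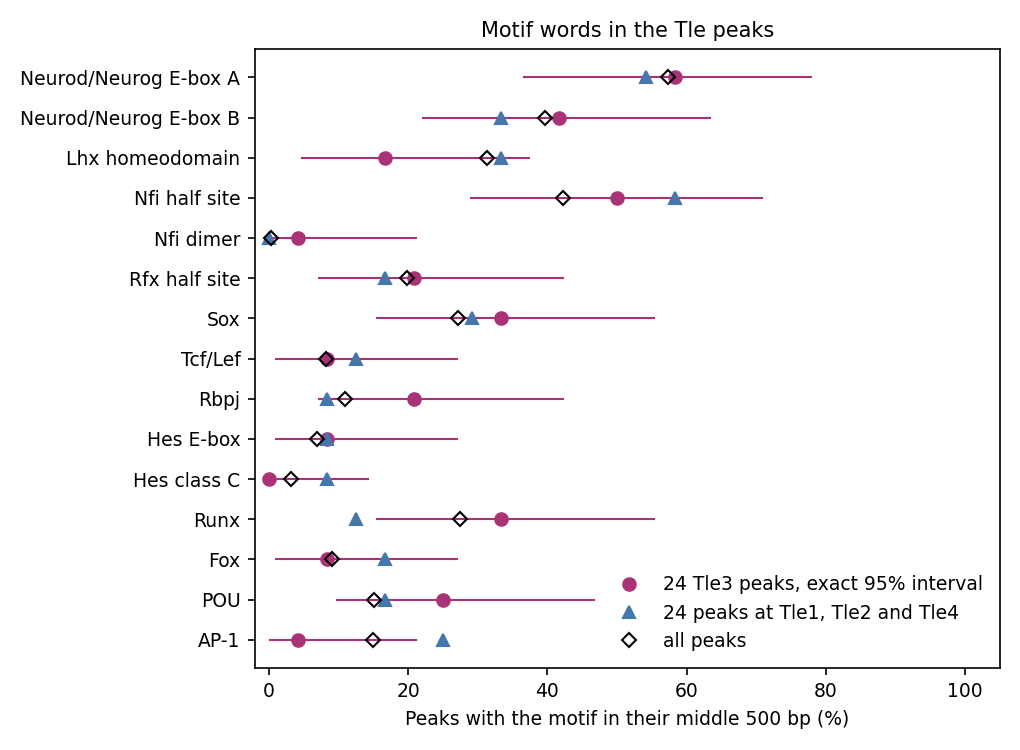
Percent of p300 peaks whose middle 500 bp holds each of 15 words, for the 24 Tle3 peaks with exact 95% intervals, the 24 peaks of the other Tle genes and all 6629 peaks. The share of all peaks lies within the Tle3 interval for each of the 15 words, and the intervals of 24 peaks are wide, from 36.6% to 77.9% for the first E-box word.

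All 48 peaks held at least 1 of the words, as did nearly all peaks of the list (127 of 6629 held none), with a median of 3 per peak at Tle2, Tle3 and Tle4 and 4.5 at Tle1, where all peaks had a median of 3. Pairs of E-box words 2 to 10 bases apart, as in peaks 4304 and 6378 above, were chosen for counting after such pairs were seen. They were in 5 of the 48 peaks (10.4%), namely 4304 and 4308 at Tle1, 612 and 613 at Tle2 and 6378 at Tle3, and in 3.95% of all peaks.

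The peaks of the 4 genes shared no long stretch of letters. With simple repeats masked, the longest identical run among the 764 pairs of peaks from different Tle genes was 17 bp. Among all 1128 pairs of the 48 peaks only 1 pair reached 20 bp, the Tle3 peaks 6366 and 6380 with 26 bp.

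Peaks were counted by the same rule for genes whose products work with Groucho proteins. All had fewer than Tle3, which is no result about them. Tle3 was chosen for its number of peaks, and only 0.0849% of coding genes had as many. Among 28 DNA-binding partners the median was 2 peaks, with a range of 0 to 12, where the median coding gene had 1. Tcf7l2, the effector of Wnt signalling, had 12, and Hes5, a Notch target that holds progenitors undifferentiated, had 8. Hes1 had 2, Six3 had 1, and Hes6, Hesx1, Runx2 and Prdm1 had 0. The deacetylase genes Hdac1 and Hdac2 had 4 each and Hdac3 had 1. Among genes of other coregulators, the corepressor gene Ncor1 had 3 peaks, Ep300, which encodes p300 itself, had 1, and Crebbp, which encodes its close relative CBP, had 0.

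The dissected tissue was checked by the peaks at its own genes, which do not measure expression. The 10 genes that mark dorsal cortex had a median of 10 peaks, with 16 at Neurog2, 13 at Neurod6 and 12 at Pax6. The 5 genes of choroid plexus and subpallium had a median of 3, from 1 at Ttr and Nkx2-1 to 7 at Dlx2. Tle3 had more peaks than any of these genes, but it was chosen for its number of peaks, so its place above them is no result. Tle4 had as many as the median of the first list.

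Across 20 steps of 50 kb, the coding genes with the arrangement of peaks most like that of Tle3 were Emx1, a dorsal cortex factor, and Thoc3, Trak1, Micall2 and Igsf21. The likeness was the summed absolute difference in peaks per step, which was 14 for Emx1 and 15 for the other 4, where a gene with no peak would be at 24. Emx1 had 10 peaks in these steps, Igsf21 11, Thoc3 13, Trak1 15 and Micall2 17.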

How the data were processed

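The data are 1 p300 ChIP-seq library and 1 input library from the same tissue. The authors aligned reads with ELAND to mm9, and called peaks over the input with MACS, of which the submitters' processing notes give version 1.4. They then dropped peaks at exons, close to start sites or with doubtful mapping by their own gene set, which thins the list at such places. The deposited list has 4 columns, with no score, signal or read count. The input was not analysed here.

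Peaks were placed on NCBIM37, the mm9 assembly, with 37273 genes of GENCODE vM1, of which 22367 are protein-coding. Python 3.11.15, numpy 2.4.6, scipy 1.17.1 and matplotlib 3.10.9 were used, and the scripts were tested on simulated data. Peaks narrower than 500 bp (30) were searched whole. No p-value was computed, since there is 1 library and the counts chose the genes. Intervals cover counting error only, and peaks of 1 library are not replicates. The members and gene lists were chosen with earlier results of these data known. Peaks named were the 3 widest, the narrowest, the nearest and farthest on each side and the closest pair at each gene, and the other peaks named were chosen after their values were seen. Genes named were those nearest to a Tle peak, members of the lists and the 5 most like Tle3, and some genes that the lists cover are not reported here. Alternatives changed the distance, start site, peaks counted, genes, regulatory domain and bases searched.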

Additional observations from a re-analysis of the deposited data

How the results depend on the processing

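No paired analysis was possible because there is 1 p300 library and no test. Of 50 values recomputed under another setting, 38 stayed within 1.5 times the reported value and 12 moved. At 250 kb Tle1 fell to 2 peaks and Tle4 to 5. With peaks narrower than the median left out there were 3 at Tle2 and 6 at Tle4. In the regulatory domain between coding genes Tle2 kept 1. Assigning each peak to its nearest coding start site, a choice made after seeing the data, gave 4 at Tle1, 1 at Tle2 and 13 at Tle3, and the share of coding genes with as many as Tle3 was then 0.0447%. Without model names Tle2 again had 1. At 1 Mb, with the gene body counted as in the main rule, the share of coding genes with as many as Tle3 was 0.268% (0.264% by distance alone). In the middle 200 bp 6 of 15 words, not 11, were more frequent in Tle3 peaks. Tle3 had from 16 to 30 peaks under the planned settings. Without scores or counts, depth sets no limit that could be computed for a single peak.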
